A study of Mus musculus with 32 samples.

Results

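Splenic B cells without ELOF1 were compared with wild-type splenic B cells after 3.5 days in culture. The comparison rests on 6 of the 32 libraries of the series, 3 labelled Elof1-cKO and 3 labelled wild-type, which were chosen by their labels for tissue, treatment, day and genotype. Only mouse genes were compared. The series measured RNA in the mouse B lymphoma line CH12F3 and in primary B cells from the spleen, each with and without ELOF1. Both groups described here came from mouse spleen, were labelled as B cells, and were treated with the cytokine IL4 and the bacterial lipopolysaccharide LPS for 3.5 days. RNA from Drosophila S2 cells was added to every sample as a spike-in, and ribosomal RNA was depleted before library preparation. The sources used here do not give what drives the deletion in Elof1-cKO cells, which part of the gene was deleted, or the age and number of the mice. They also do not say that the 3 replicates of a group came from separate mice, so p-values measure a spread between samples, which may be technical. In the main edgeR fit that spread was estimated over all 16 spleen libraries, 10 of them from day 2.5. The permutation tests used the 6 day 3.5 libraries alone.

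ELOF1 is a small, conserved elongation factor that travels with RNA polymerase II and takes part in the repair of DNA damage that stalls transcription. In activated B cells, cytosines in transcribed DNA of the immunoglobulin heavy-chain locus are deaminated, and the breaks that follow join the Ighm region to a downstream constant gene, which is class switch recombination. With IL4 and LPS, mouse B cells switch mainly from IgM to IgG1 and, to a lesser degree, to IgE. The title of the series links ELOF1-associated RNA polymerase II to DNA damage coupled to transcription, so the comparison asks which RNAs differ when switching B cells lack ELOF1.

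The targeted gene separated the groups. Elof1 (ENSMUSG00000013822, minus strand of chromosome 9, 22112989 to 22117148 in mm10) had 20.6, 21.4 and 40.6 CPM (counts scaled to library size by TMM) in WT replicates 1 to 3. It had 7.65, 4.64 and 5.33 CPM in the Elof1-cKO replicates. Every Elof1-cKO library was below every WT library, and RNA of the gene remained detectable in all 3. The log2 fold change was -2.23 ± 0.46 (SE) with an adjusted p of 0.0175 (edgeR quasi-likelihood test, Benjamini-Hochberg). The adjusted p was at most 0.115 when single libraries were left out, reached without Elof1-cKO replicate 3, and the fits without Elof1-cKO replicate 2 or WT replicate 3 missed the threshold too.

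The 6 libraries held 11110219 to 14967558 mouse counts each. Fly counts were 4.49% to 6.60% of mouse counts in WT libraries and 5.32% to 8.39% in Elof1-cKO libraries. Fly against mouse counts, as a log2 ratio, differed by 0.25 between the groups, whose values overlapped (exact 2-sided permutation p = 0.4, adjusted p = 0.4 over 3 such tests, and 3 against 3 libraries cannot go below 0.1). B cell markers such as Cd79a and Ms4a1 were present in all 6 libraries. The summed level of the B cell marker list was highest in Elof1-cKO replicate 3 and lowest in WT replicate 1. Of the other marker lists, that of T cells summed to 34.4 to 45.2 CPM in WT and 21.2 to 24.2 CPM in Elof1-cKO. Of its 2 tested genes, Lck was called lower, from 22.5, 29.05 and 20.7 CPM to 14.8, 14.2 and 15.1 CPM. Its log2 fold change was -0.72 (edgeR adjusted p = 0.015), kept in 1 of 6 fits that left out a single library. Cd28 went from 13.7, 15.1 and 12.9 CPM to 7.22, 5.58 and 8.12 CPM. The defining T cell genes Cd3d, Cd3e and Cd3g stayed at or below 0.262 CPM. The complement genes C1qa, C1qb and C1qc of macrophages were at 0 in all 6 libraries. The neutrophil genes S100a8, S100a9, Elane and Retnlg were also at 0. On the first principal component, with 35.2% of the variance, Elof1-cKO replicate 3 lay on one side and WT replicates 1 and 3 on the other, while WT replicate 2 lay beside Elof1-cKO replicates 1 and 2. The second component, with 29.6%, had Elof1-cKO replicates 1 and 2 at one end and WT replicate 2 at the other.

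Across the transcriptome, 277 of 13367 tested genes, or 2.07%, passed an adjusted p of 0.05 at day 3.5. Of these, 153 (1.14%) were higher and 124 (0.928%) were lower without ELOF1. The change was at least 2-fold for 50 of the higher and 54 of the lower genes, and the median change was 1.69-fold among the higher and 1.87-fold among the lower genes. In 276 of the 277 called genes the 3 libraries of one group did not overlap the 3 of the other, the exception being Bin2. Among all tested genes, 12.6% did not overlap with Elof1-cKO higher and 12.5% with Elof1-cKO lower. Scaling the libraries by their fly counts in place of TMM moved the median log2 fold change of all genes from -0.00 to -0.29. With that scaling 17 genes were higher and 88 lower, against 153 and 124. More falls than rises passed under both scalings, 71 of the 124 lower genes and 17 of the 153 higher genes.

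The number of calls also depended on single libraries. It was 62 without Elof1-cKO replicate 3, 152 without Elof1-cKO replicate 1, and 161 without Elof1-cKO replicate 2. It was 69 without WT replicate 1, 100 without WT replicate 3 and 1.5% of tested genes without WT replicate 2. In all, 54 genes kept their call in each of these 6 leave-one-out fits, 31 of them higher and 23 lower, while 46 genes kept it in none. All 23 of the lower genes and 8 of the 31 higher genes also passed with fly scaling. For genes outside this set of 54, the number of leave-one-out fits that kept the call is given beside the result. The fit also held a term for library series, described with the processing. Without that term 87 genes were called, and some genes that lost their call there are named at the end.

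**Figure D1:**
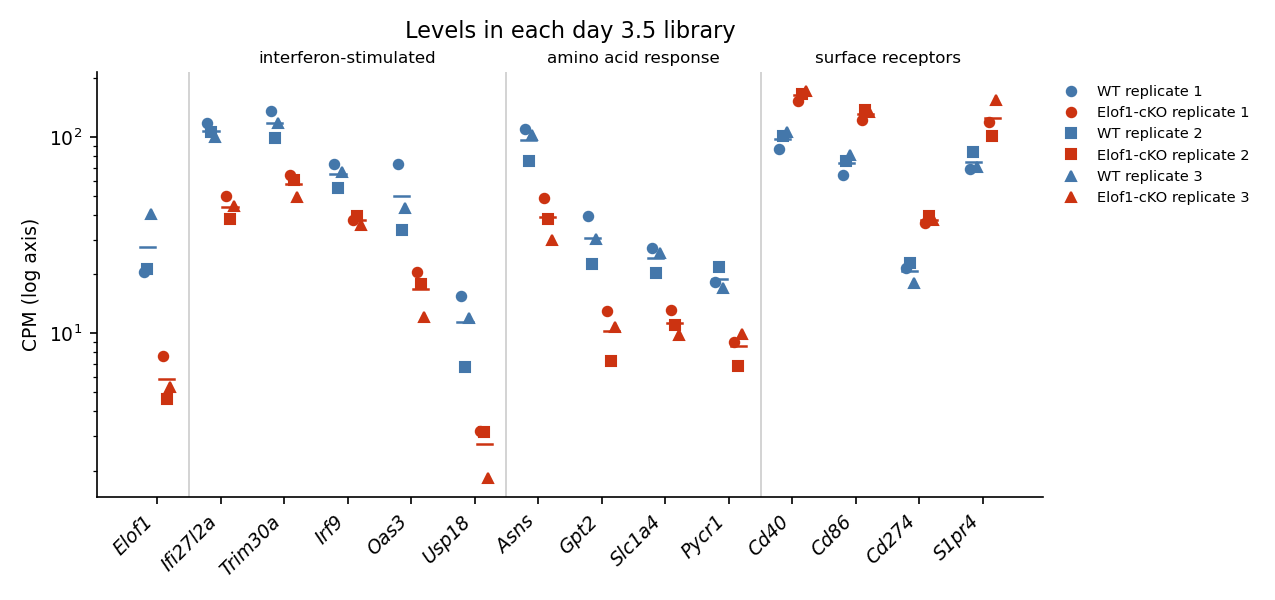
CPM on a log axis of Elof1 and 13 genes in each of the 6 day 3.5 libraries, with WT in blue, Elof1-cKO in red, a symbol for each replicate number and a line at each group mean. For all genes shown the points of the groups do not overlap, as for Asns, at 75.5 to 110 CPM in WT and 29.9 to 48.8 CPM in Elof1-cKO.

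The main switched heavy-chain transcript fell without ELOF1. Ighg1 encodes the constant region of IgG1 (ENSMUSG00000076614, minus strand of chromosome 12, 113325240 to 113330523). It had 2332, 3306 and 2191 CPM in the WT libraries and 962, 979 and 1191 CPM in the Elof1-cKO libraries. The groups did not overlap, and the lowest WT value was well above the highest Elof1-cKO value. Ighg1 fell by 2.50-fold, a log2 fold change of -1.32 ± 0.17 (SE, edgeR adjusted p = 0.000971). It kept its call in all 6 leave-one-out fits, with a largest adjusted p of 0.00977. Ighm, the constant region of IgM, was at 0.01 ± 0.22 (adjusted p = 0.994). In bulk RNA, fewer switched cells and less Ighg1 RNA per cell cannot be told apart.

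Set against all reads of the heavy-chain constant genes, Ighg1 took 22.2%, 17.3% and 20.5% of the counts in WT and 9.30%, 8.75% and 8.71% in Elof1-cKO. Ighm took 74.2% to 79.7% in WT and 88.7% to 89.5% in Elof1-cKO. The shares are of raw counts, not per length, and the IgG constant genes resemble one another, so reads may be split between them. The log2 ratio of Ighg1 to Ighm counts differed by -1.38, at -3.32 ± 0.06 and -1.95 ± 0.24 (SD, n = 3 each) in Elof1-cKO and WT. All 9 pairs of libraries had the lower ratio in Elof1-cKO, which gives the smallest p the design allows (exact 2-sided permutation p = 0.1, adjusted p = 0.15 over 3 tests).

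The other IgG genes gave smaller counts and did not pass the threshold, although in each of them every Elof1-cKO library was below every WT library. On the log2 scale Ighg3 differed by -1.36 ± 0.36 (adjusted p = 0.0661) and took 0.851% to 0.918% of heavy-chain counts in WT and 0.357% to 0.417% in Elof1-cKO. For Ighg2b the values were -1.04 ± 0.34 (adjusted p = 0.143), and 0.931% to 1.01% against 0.424% to 0.599% of the counts. Ighg2c differed by -3.00 ± 0.98 (adjusted p = 0.145), from 0.158% to 0.269% down to 0.0260% to 0.0422%. Ighe, the constant gene of IgE, had 126, 113 and 132 CPM in WT and 62.9, 74.6 and 80.4 CPM in Elof1-cKO, with an adjusted p of 0.53. As a share of heavy-chain counts Ighe overlapped, since WT replicate 2 was at 0.590% and Elof1-cKO replicate 2 at 0.667%. In the whole list of immunoglobulin constant genes, Ighg1 was the 1 called member of 11, and 10 of 11 log2 fold changes were negative.

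**Figure D2:**
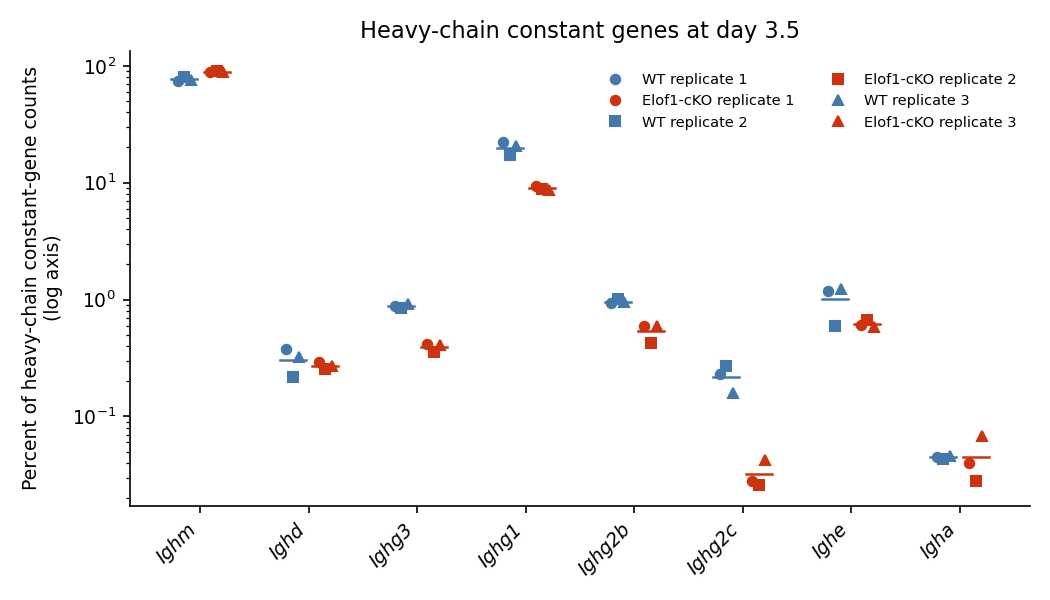
Percent of all heavy-chain constant-gene counts taken by each gene, on a log axis, in each day 3.5 library, with WT in blue, Elof1-cKO in red and a line at each group mean. Ighg1 lies at 17.3% to 22.2% in WT and at 8.71% to 9.30% in Elof1-cKO, and the groups overlap for Ighd, Ighe and Igha.

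Among the genes listed for the steps of class switching, none passed the threshold. With 2.07% of all tested genes called, lists of this size would hold few or no calls in any case. Ung, the uracil glycosylase that acts on the deaminated base, had a log2 fold change of -0.00 ± 0.13 (edgeR adjusted p = 0.995). Supt5, an elongation factor that acts at paused polymerase, was at 0.03 ± 0.11, and Trp53bp1, whose product protects broken ends for joining, was at -0.10 ± 0.12. In the list of deamination and uracil-processing genes, 0 of 26 passed by edgeR, 3 had an unadjusted p under 0.05, and the median log2 fold change was 0.01. In the list of end joining and break signalling genes, 0 of 29 passed, 2 had an unadjusted p under 0.05, and the median was -0.04. Of all 13367 tested genes, 1808 had an unadjusted p under 0.05, and the median over all of them was -0.00.

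In the transcription machinery around ELOF1, calls were about as few as the 2.07% of all tested genes would give. Of 13 RNA polymerase II subunit genes, 0 passed and 0 had an unadjusted p under 0.05, with a median log2 fold change of 0.15. Polr2a, the largest subunit, was at 0.15 ± 0.12 (adjusted p = 0.682). Of 41 elongation and pausing genes and 25 genes of transcription-coupled repair, Elof1 itself was the 1 called member of both lists. The repair genes Ercc6, which encodes the remodeller CSB, and Ercc8, which encodes CSA, were at -0.22 ± 0.13 and -0.06 ± 0.16. With fly scaling the medians of these lists were -0.17, -0.27 and -0.31, against -0.29 for all genes.

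Interferon-stimulated genes were lower without ELOF1. Type I interferons signal through a receptor made of IFNAR1 and IFNAR2 to a complex that holds STAT2 and IRF9, which binds interferon-stimulated response elements in promoters and turns on antiviral genes. Of the 34 tested members of the type I interferon response list, 8 fell and 0 rose, against 0.928% of all tested genes lower. All 34 log2 fold changes were negative, their median was -0.69, and in 25 the groups did not overlap, against 12.5% of all tested genes. The median was -1.03 with fly scaling, against -0.29 for all genes.

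Ifi27l2a, an interferon-induced mitochondrial gene, had 118, 106 and 100 CPM in WT and 50.2, 38.2 and 44.4 CPM in Elof1-cKO. It fell by 1.29 on the log2 scale (SE 0.18, edgeR adjusted p = 0.00136) and kept its call in all 6 leave-one-out fits. Usp18, which encodes the protease that removes ISG15 and dampens the receptor, had 15.5, 6.76 and 12 CPM in WT and 3.18, 3.15 and 1.83 CPM in Elof1-cKO. Its log2 fold change was -2.06 ± 0.37 (adjusted p = 0.00878), kept in 4 of 6 leave-one-out fits with a largest adjusted p of 0.0698, without Elof1-cKO replicate 3. Trim30a, a regulator of inflammatory signalling, had 136, 99.4 and 119 CPM in WT and 64.0, 60.2 and 49.2 CPM in Elof1-cKO. The log2 fold change of Trim30a was -1.03 ± 0.19 (adjusted p = 0.0110), also kept in 4 of 6 fits, with 0.0813 without Elof1-cKO replicate 3. The groups did not overlap in any of these genes, and for Usp18 and Trim30a the lowest library was Elof1-cKO replicate 3 and the lowest WT library was replicate 2. Summed levels of dendritic cell markers were 54.4 to 76.1 CPM in WT and 31.1 to 36.3 CPM in Elof1-cKO. Nearly all of each sum came from Batf3, Flt3 and Zbtb46. Clec9a was at 0 in all 6 libraries, Siglech and Xcr1 stayed at or below 0.0873 CPM, and Itgax at or below 0.708 CPM. Of 3 tested genes 1 was lower, Zbtb46, whose call was kept in 0 leave-one-out fits (adjusted p = 0.184 without WT replicate 3). The part of dendritic cells in the result was not tested.

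Irf9, the DNA-binding subunit of the signalling complex, had 72.6, 54.9 and 66.1 CPM in WT and 37.8, 39.8 and 35.7 CPM in Elof1-cKO, a log2 fold change of -0.77 ± 0.15 (adjusted p = 0.0114). Oas3, a sensor of double-stranded RNA, had 72.7, 33.4 and 43.7 CPM in WT and 20.6, 17.9 and 12.1 CPM in Elof1-cKO, a log2 fold change of -1.56 ± 0.33 (adjusted p = 0.0209). Xaf1, Dhx58 and Mx1 were the remaining genes that fell, with adjusted p of 0.0199, 0.0182 and 0.0455. These calls were less stable than that of Ifi27l2a: Irf9 kept its call in 3 of 6 leave-one-out fits, Oas3 and Xaf1 in 2, and Dhx58 and Mx1 in 1. The largest adjusted p of all 5 was reached without WT replicate 1, from 0.0855 for Irf9 to 0.25 for Mx1. The count of called members was 1 without WT replicate 1, 1 without Elof1-cKO replicate 3, 3 without WT replicate 3, 4 without Elof1-cKO replicate 2, 6 without Elof1-cKO replicate 1 and 11 without WT replicate 2.

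Stat2 differed by -0.56 ± 0.15 on the log2 scale (edgeR adjusted p = 0.0716). The receptor genes Ifnar1 and Ifnar2, which lie outside the list, were at 0.25 ± 0.09 and 0.13 ± 0.11 (adjusted p = 0.231 and 0.729). The interferon genes themselves were barely seen. Of the 18 type I interferon genes in the table, 4 had any count, and together they had 3 counts in the WT libraries and 4 in the Elof1-cKO libraries. Ifnb1 had 0 counts in all 6 libraries, which allows up to 0.200 to 0.270 CPM per library for counting error.

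Some related genes outside that list fell too. Of 16 tested PYHIN and schlafen genes, which encode DNA sensors and growth regulators, 4 fell and 0 rose, against 0.928% of all tested genes lower: Ifi206, Ifi213, Ifi208 and Slfn8. Ifi206 had 14.5, 8.11 and 11.5 CPM in WT and 3.27, 2.60 and 1.75 CPM in Elof1-cKO, with a log2 fold change of -2.15 ± 0.30 (edgeR adjusted p = 0.00136) that was kept in all 6 leave-one-out fits. Ifi213 kept its call in 3 of 6, Slfn8 in 2 and Ifi208 in 1, with largest adjusted p of 0.0877 without Elof1-cKO replicate 3, 0.171 without WT replicate 1 and 0.207 without WT replicate 3. The count of 4 was 1 without WT replicate 3, Elof1-cKO replicate 1 or Elof1-cKO replicate 3, and 2 without WT replicate 1. These genes lie in families of close copies, so their reads may be split between members. Other interferon-responsive genes, chosen after their values were seen, included Lgals9, which encodes galectin-9, at -0.87 ± 0.12 (adjusted p = 0.0017, kept in all 6 fits), and Rnf213, at -1.28 ± 0.29 (adjusted p = 0.0281, kept in 2, and 0.193 without WT replicate 1). Gbp2, a guanylate-binding protein induced mainly by interferon gamma, went the other way. It had 306, 285 and 381 CPM in WT and 529, 530 and 484 CPM in Elof1-cKO, and rose by 0.67 ± 0.11 on the log2 scale (adjusted p = 0.00509, kept in all 6 fits, but 0.497 with fly scaling). It was the 1 called member of 13 tested guanylate-binding genes, of which 10 had negative values, with a median of -0.23, and at an unadjusted p under 0.05 there were 1 higher and 4 lower.

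Interferon-stimulated response elements are shown for 4 members of the interferon list, because their promoters carry the letters that the complex with STAT2 and IRF9 is known to bind. The motif searched was GAAANNGAAA, on both strands, in the 250 bases before each RefSeq start site of build GRCm38.p6, and copies may overlap. It was found for 9 of the 23 tested members that have a promoter window (39.1%), for 2 of the 4 members that fell and have one, and for 3.31% of tested genes with a window. In the lines below the motif is in capitals with 25 bases on either side, all as the gene's own strand reads, so that TTTCTTTTTC in Trim30a is the motif on the other strand, and a longer run of capitals holds overlapping copies. Oas3 and Trim30a fell, and Isg15 (-0.75 ± 0.19, adjusted p = 0.0558) and Bst2 (-0.73 ± 0.20, adjusted p = 0.0753) did not pass. The median log2 fold change was -0.75 over the 9 members with the motif and -0.54 over the 14 without it, with 2 called in each group. The 11 members without a promoter window, which were not searched, had a median of -1.14 and 4 called. A match is a description of the letters, not a measured site.
Oas3, chr5:120777700-120777759, minus strand: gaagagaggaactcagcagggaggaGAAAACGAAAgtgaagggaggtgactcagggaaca
Trim30a, chr7:104465195-104465254, minus strand: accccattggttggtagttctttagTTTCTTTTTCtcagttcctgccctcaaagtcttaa
Isg15, chr4:156200850-156200921, minus strand: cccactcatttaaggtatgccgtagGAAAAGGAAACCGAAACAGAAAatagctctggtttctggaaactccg
Bst2, chr8:71537562-71537627, minus strand: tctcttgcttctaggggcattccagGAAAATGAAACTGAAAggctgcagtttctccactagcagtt

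A second block of lower genes belonged to the amino acid response. ATF4 is a transcription factor made when amino acids run short or the endoplasmic reticulum is stressed, and it turns on genes for amino acid synthesis and transport. Of the 34 tested members of the ATF4 and amino acid response list, 8 fell and 1 rose, against 0.928% of all tested genes lower and 1.14% higher. In the list 29 log2 fold changes were negative, and the median was -0.44. In 23 members the groups did not overlap with Elof1-cKO lower, against 12.5% of all tested genes. Atf4 itself had 270, 265 and 252 CPM in WT and 239, 219.3 and 216.4 CPM in Elof1-cKO, a log2 fold change of -0.22 ± 0.09 that did not pass (adjusted p = 0.278). With fly scaling the median of the list was -0.76, against -0.29 for all genes.

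Asns, which encodes asparagine synthetase, had 110, 75.5 and 103 CPM in WT and 48.8, 38.2 and 29.9 CPM in Elof1-cKO, and fell by 1.30 on the log2 scale (SE 0.21, edgeR adjusted p = 0.00431). Gpt2, the mitochondrial alanine transaminase, had 39.4, 22.5 and 30.1 CPM in WT and 13, 7.24 and 10.7 CPM in Elof1-cKO, a log2 fold change of -1.57 ± 0.25 (adjusted p = 0.0042). Both genes were lower in every Elof1-cKO library than in any WT library. Slc1a4, a carrier of serine and other neutral amino acids, had 27.1, 20.3 and 25.6 CPM in WT and 13.2, 11 and 9.78 CPM in Elof1-cKO (log2 fold change -1.10 ± 0.18, adjusted p = 0.0042). Pycr1, which makes proline, had 18.3, 21.7 and 17 CPM in WT and 9.03, 6.84 and 9.96 CPM in Elof1-cKO (log2 fold change -1.14 ± 0.18, adjusted p = 0.00412). All 4 kept their calls in each leave-one-out fit and with fly scaling.

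The other members that fell were Cth, Trib3, Slc6a9 and Stc2. Cth, which makes cysteine from cystathionine, was at -1.08 ± 0.19 (edgeR adjusted p = 0.00873) and lost its call without WT replicate 1 (adjusted p = 0.0619). Trib3 and Slc6a9 kept theirs in 2 of 6 leave-one-out fits and Stc2, at 1.01 to 1.99 CPM in WT and 0 to 0.0873 CPM in Elof1-cKO, in 1, each with its largest adjusted p without WT replicate 1, at 0.104, 0.125 and 0.106. Atf5, a relative of Atf4, was the member that rose, from 135, 113 and 117 CPM to 243, 182 and 277 CPM, with a log2 fold change of 0.94 ± 0.21 (adjusted p = 0.0264). Its call was kept in 1 of 6 leave-one-out fits, was at 0.167 without Elof1-cKO replicate 3, and was lost with fly scaling (adjusted p = 0.421). The number of called members was 4 without WT replicate 1, 5 without WT replicate 3 and 5 without Elof1-cKO replicate 3, against 9.

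Genes of neighbouring steps fell as well, Aldh1l2 by the rule for the largest falls and Bcat1 chosen after its values were seen. Aldh1l2, a mitochondrial enzyme of folate metabolism, had 11.4, 4.46 and 8.46 CPM in WT and 2.41, 0.944 and 0.437 CPM in Elof1-cKO, a log2 fold change of -2.67 ± 0.55 (edgeR adjusted p = 0.018). Its call was kept in 2 of 6 leave-one-out fits, with a largest adjusted p of 0.115 without Elof1-cKO replicate 3. Bcat1, the cytosolic branched-chain transaminase, had 84.0, 70.5 and 82.3 CPM in WT and 49.3, 39.7 and 36.7 CPM in Elof1-cKO, a log2 fold change of -0.91 ± 0.14 that was kept in all 6 fits. Among the aminoacyl-tRNA synthetases, several of which are known ATF4 targets, 0 of 20 passed by edgeR and 5 had an unadjusted p under 0.05, all lower, with 17 of 20 values negative and a median of -0.16. Of all 13367 tested genes, 2.07% passed and 1808 had an unadjusted p under 0.05. Gars and Iars had the smallest p of that list, at -0.27 ± 0.09 and -0.25 ± 0.09 (adjusted p = 0.157 and 0.185).

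The letters to which ATF4 and C/EBP factors are known to bind as a pair are shown for 4 members of the amino acid list. The motif searched was TGATGNAA, on both strands, in the same 250 bases before each RefSeq start site of GRCm38.p6. It was found for 6 of the 29 tested members with a window (20.7%), for 2 of the 7 members that fell and have one, and for 2.39% of tested genes with a window. Asns and Pycr1 fell, and Chac1 (-0.70 ± 0.23, adjusted p = 0.143) and Nupr1 (-2.62 ± 0.80, adjusted p = 0.115) did not pass. Slc1a4, Gpt2 and Trib3 fell and have a window without these letters. The motif is again in capitals with up to 25 bases on either side, and it lies on the other strand in Chac1 and Nupr1.
Asns, chr6:7693210-7693257, minus strand: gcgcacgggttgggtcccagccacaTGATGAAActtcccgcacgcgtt
Pycr1, chr11:120643819-120643876, minus strand: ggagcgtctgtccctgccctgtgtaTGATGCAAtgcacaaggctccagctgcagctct
Chac1, chr2:119351024-119351081, plus strand: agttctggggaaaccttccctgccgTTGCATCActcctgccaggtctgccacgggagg
Nupr1, chr7:126625548-126625605, minus strand: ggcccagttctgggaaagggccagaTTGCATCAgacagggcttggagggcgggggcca

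**Figure D3:**
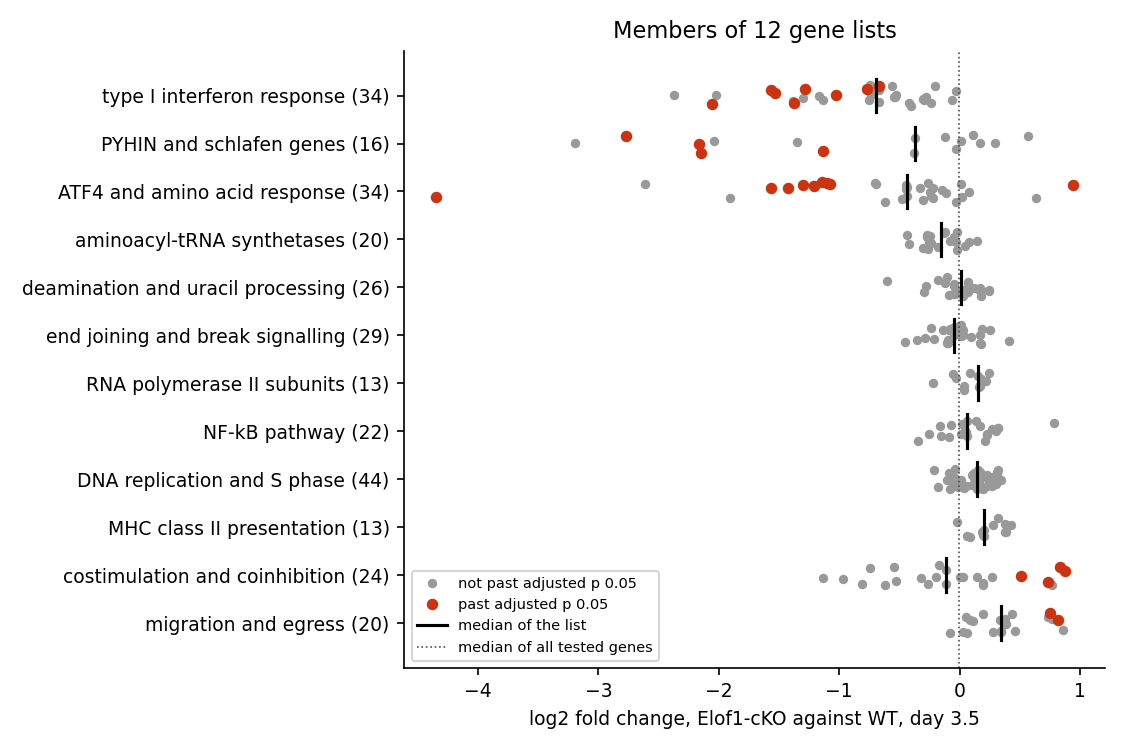
Log2 fold change of Elof1-cKO against WT at day 3.5 for each tested member of 12 gene lists, with the number tested in brackets, members past the threshold in red and the median of each list as a black bar. The interferon and amino acid lists lie to the left of the dotted line at the median of all tested genes, with medians of -0.69 and -0.44.

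Receptors through which B cells meet T cells rose in part. Of 24 tested genes of costimulation and coinhibition, 4 rose and 0 fell, against 1.14% of all tested genes higher, while the median of the list was -0.11 and 14 of 24 values were negative. Cd40, the receptor for T cell help, had 86.8, 102 and 106 CPM in WT and 152, 165 and 172 CPM in Elof1-cKO. It rose by 0.73 ± 0.10 on the log2 scale (edgeR adjusted p = 0.000971). Cd274, which encodes the inhibitory ligand PD-L1, had 21.4, 22.7 and 18 CPM in WT and 36.5, 39.6 and 37.8 CPM in Elof1-cKO (log2 fold change 0.87 ± 0.13, adjusted p = 0.00198). Both kept their calls in all 6 leave-one-out fits, and their groups did not overlap. Cd86, a ligand of CD28, had 63.9, 75.1 and 81.3 CPM in WT and 122, 137 and 134 CPM in Elof1-cKO (log2 fold change 0.84 ± 0.17, adjusted p = 0.015), kept in 3 of 6 fits with a largest adjusted p of 0.104 without WT replicate 1. Cd84 kept its call in 1 fit, with 0.182 without WT replicate 1. None of the 4 passed with fly scaling, where the adjusted p was 0.286 for Cd86 and 0.634 for Cd84. The number of called members was 2 without WT replicate 1, without Elof1-cKO replicate 2 or without Elof1-cKO replicate 3.

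Homing and egress genes leaned higher. Of 20 tested, 2 rose, against 1.14% of all tested genes higher, and 19 values were positive. In 11 the groups did not overlap with Elof1-cKO higher, against 12.6% of all tested genes. The median log2 fold change was 0.34 under TMM and 0.10 under fly scaling, against -0.00 and -0.29 for all genes. Among the genes that rose was S1pr4, a sphingosine-1-phosphate receptor, which had 68.8, 83.6 and 70.6 CPM in WT and 120, 101 and 155 CPM in Elof1-cKO (log2 fold change 0.75 ± 0.16, edgeR adjusted p = 0.0213). Its call was kept in 2 fits, with a largest adjusted p of 0.153 without Elof1-cKO replicate 3. S1pr1, the receptor that draws lymphocytes into lymph, and Klf2, which drives it, were at 0.86 ± 0.22 and 0.74 ± 0.27 without passing (adjusted p = 0.0552 and 0.214). Neither of the genes that rose passed with fly scaling, where the adjusted p of S1pr4 was 0.407. The count was 1 without WT replicate 1, WT replicate 3, Elof1-cKO replicate 1 or Elof1-cKO replicate 3.

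Adhesion genes were called in both directions. Of 21 tested, Cdh1 and Itgb7 rose and Cd44 fell, against 1.14% of all tested genes higher and 0.928% lower. Cdh1, which encodes E-cadherin, had 0.52, 0.608 and 0.163 CPM in WT and 1.46, 3.54 and 4.80 CPM in Elof1-cKO, a log2 fold change of 2.88 ± 0.52 (edgeR adjusted p = 0.00878). Itgb7, the beta chain of the gut-homing integrin, had 8.67, 12.9 and 7.97 CPM in WT and 24.5, 27.1 and 38.2 CPM in Elof1-cKO (log2 fold change 1.60 ± 0.33, adjusted p = 0.0175). Cd44, the hyaluronan receptor of activated lymphocytes, had 912, 851 and 891 CPM in WT and 610, 614 and 571 CPM in Elof1-cKO (log2 fold change -0.56 ± 0.11, adjusted p = 0.0165). Cdh1 kept its call in 4 of 6 leave-one-out fits, Itgb7 in 3 and Cd44 in 2, each with its largest adjusted p, of 0.063, 0.117 and 0.108, without Elof1-cKO replicate 3. The count of 3 was 0 without WT replicate 3 and 1 without WT replicate 1. With fly scaling Cdh1 still passed, and Itgb7 and Cd44 had adjusted p of 0.0702 and 0.117.

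The 10 largest rises by rule came from several kinds of gene. Alox5ap, which serves leukotriene synthesis, had 0.867, 0.811 and 1.14 CPM in WT and 4.21, 3.46 and 6.72 CPM in Elof1-cKO, a log2 fold change of 2.34 ± 0.30 (edgeR adjusted p = 0.000971). Gramd2 rose by 2.18 ± 0.35 and Tspoap1 by 2.16 ± 0.41, the latter from 15.9 to 26.4 CPM in WT to 79.1 to 111 CPM in Elof1-cKO. Fcgrt, the neonatal Fc receptor, S100a6, a calcium-binding protein, and Nfam1, a receptor with a tyrosine activation motif, rose by 2.12 ± 0.44, 1.82 ± 0.36 and 1.81 ± 0.22. Nqo1, a quinone reductase of the antioxidant response, rose by 1.82 ± 0.45, and Lrrc25, Hfe and Lynx1 by 1.75 ± 0.39, 1.75 ± 0.40 and 1.73 ± 0.19. Alox5ap, Gramd2, Nfam1 and Lynx1 kept their calls in all 6 leave-one-out fits, Tspoap1, Fcgrt and S100a6 in 3, and Nqo1, Lrrc25 and Hfe in none. The largest adjusted p of Tspoap1 was 0.057 without WT replicate 3, that of S100a6 was 0.0995 without Elof1-cKO replicate 3, and those of Fcgrt, Lrrc25 and Nqo1 were 0.124, 0.151 and 0.245 without WT replicate 1. That of Hfe was 0.126 without WT replicate 3. With fly scaling 8 of these 10 genes still passed, the exceptions being Nqo1 (adjusted p = 0.102) and Hfe (0.218).

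Several of these genes are also known from myeloid cells, so macrophage markers were set beside them. The summed level of that marker list was 3.47 to 6.82 CPM in WT and 7.14 to 13.7 CPM in Elof1-cKO, and 0 of its 4 tested genes passed. Adgre1 had 1.30, 3.65 and 3.58 CPM in WT and 3.87, 7.31 and 11.3 CPM in Elof1-cKO, while Csf1r stayed at or below 0.173 CPM in all 6 libraries. Itgam had 0.347, 0.946 and 0.732 CPM in WT and 1.89, 1.97 and 0.961 CPM in Elof1-cKO. Lyz2 leaned the other way, with 1.30, 1.76 and 0.326 CPM in WT and 0.258, 0.157 and 0.873 CPM in Elof1-cKO, and its groups overlapped. The part of myeloid cells in these rises was not tested. Smaller rises with narrow errors, chosen after their values were seen, included that of Sema4a, a semaphorin that costimulates T cells. Sema4a had 18.1, 19 and 19.2 CPM in WT and 52.5, 56.0 and 69.2 CPM in Elof1-cKO, with a log2 fold change of 1.66 ± 0.12 and an edgeR adjusted p of 6.62e-06, the smallest of all genes. Its call held in all 6 leave-one-out fits and with fly scaling (adjusted p = 0.0094).

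Among transcription factors and signalling genes, falls included Irf4, Egr2 and Fosl2. Irf4, which sets the course of activated B cells towards switching and plasma cells, had 392, 346 and 391 CPM in WT and 242, 282 and 245 CPM in Elof1-cKO (log2 fold change -0.55 ± 0.13, edgeR adjusted p = 0.033). Egr2, an immediate-early gene of receptor signalling, had 120, 179 and 96.6 CPM in WT and 84.2, 71.7 and 56.7 CPM in Elof1-cKO (log2 fold change -0.89 ± 0.21, adjusted p = 0.0337). Fosl2 was at -0.95 ± 0.23 (adjusted p = 0.0422). Egr2 and Fosl2 were the 2 called members of 26 immediate-early genes, of which 15 had positive values, with a median of 0.22 (-0.03 with fly scaling, against -0.29 for all genes), and at an unadjusted p under 0.05 there were 7 higher and 3 lower. These calls were among the less stable ones, kept in 1 leave-one-out fit for Irf4, 2 for Egr2 and 0 for Fosl2, with largest adjusted p of 0.166 and 0.198 without Elof1-cKO replicate 3 and 0.194 without WT replicate 1. Of 19 plasma cell genes, Irf4 was the 1 called member, against 0.928% of all tested genes lower. In that list 11 values were negative, with a median of -0.24 (-0.49 with fly scaling, against -0.29 for all genes). At an unadjusted p under 0.05 there were 6 lower and 0 higher. In 6 members the groups did not overlap with Elof1-cKO lower, against 12.5% of all tested genes, and in 2 with Elof1-cKO higher, against 12.6%. Prdm1 and Xbp1 were at 0.00 ± 0.24 and 0.06 ± 0.14. The adaptor gene Dapp1 rose by 0.81 ± 0.14 and the repressor gene Ski by 0.79 ± 0.12 (adjusted p = 0.00808 and 0.00223). Ski kept its call in all 6 leave-one-out fits and Dapp1 in 4, and neither passed with fly scaling (adjusted p = 0.376 for Ski and 0.349 for Dapp1, the latter also at 0.0582 without Elof1-cKO replicate 3).

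Sensing and identity genes held no call, where 2.07% of all tested genes were called. In the NF-kB list 0 of 22 passed by edgeR and 7 had an unadjusted p under 0.05, in the list for LPS and Toll-like receptor sensing 0 of 22 and 5, and among B cell identity factors 0 of 21 and 7. Of all 13367 tested genes, 1808 had an unadjusted p under 0.05. In 10, 7 and 7 members of these lists the groups did not overlap with Elof1-cKO higher, against 12.6% of all tested genes. With Elof1-cKO lower this held for 3 members of each list, against 12.5%. The medians of these lists were 0.06, 0.08 and 0.09, and with fly scaling -0.21, -0.19 and -0.16 against -0.29 for all genes. Ets1 and Spib, factors that mark B cells, had the smallest p of the last list, at 0.42 ± 0.11 and 0.44 ± 0.12 (adjusted p = 0.0707 and 0.076). Of 13 MHC class II genes, 12 values were positive and 0 passed, with 5 at an unadjusted p under 0.05 and a median of 0.20 that was -0.07 with fly scaling. H2-DMb1, which helps load peptides, had 129, 139 and 139 CPM in WT and 176, 177 and 176 CPM in Elof1-cKO, yet an adjusted p of 0.0746.

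Each list of growth and metabolism genes held 0 or 1 called member. Of 44 DNA replication genes 0 passed and 8 had an unadjusted p under 0.05, with 33 values positive and a median log2 fold change of 0.14. Of 33 genes of mitosis 1 rose, Kif23, a motor of cell division, by 0.41 ± 0.09 (edgeR adjusted p = 0.0308), and 27 values were positive with a median of 0.09. With fly scaling the medians were -0.14 and -0.17, against -0.29 for all genes. Uqcc2, needed to assemble complex III of the respiratory chain, had 40.8, 45.7 and 40.3 CPM in WT and 26.9, 20.3 and 24.8 CPM in Elof1-cKO and fell by 0.82 on the log2 scale (SE 0.12, adjusted p = 0.0017, kept in all 6 leave-one-out fits). It was the 1 called gene of 60 nuclear respiratory genes, Mrps28 of 77 mitochondrial ribosomal proteins and Acaca, which starts fatty acid synthesis, of 33 lipid synthesis genes. Mrps28 and Acaca kept their calls in 0 leave-one-out fits, with adjusted p of 0.113 and 0.217 without Elof1-cKO replicate 3, and Kif23 kept its call in 1, with 0.179 without WT replicate 1. Values were negative in 27 of 33 lipid synthesis genes and 22 of 29 glycolysis and hypoxia genes, with medians of -0.18 and -0.17. With fly scaling these medians were -0.49 and -0.48, against -0.29 for all genes. The groups did not overlap with Elof1-cKO lower in 14 and 8 members, against 12.5% of all tested genes. With Elof1-cKO higher this held for 1 member of each list, against 12.6%. Glycolysis and hypoxia (29 genes), p53 targets (24), the BCL2 family (16) and cytosolic ribosomal proteins (84) had 0 called members by edgeR and 4, 5, 3 and 5 at an unadjusted p under 0.05. Of all 13367 tested genes, 2.07% passed and 1808 had an unadjusted p under 0.05.

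Long genes had lower fold changes than short ones at day 3.5. Gene span is the distance from the first to the last annotated base in the count table. Among 1282 tested genes that span 100 kb or more, 33 were called lower and 9 higher, so that 2.57% were lower against 0.928% of all tested genes. Among 4738 genes under 10 kb, 17 were lower (0.359%) and 46 higher (0.971%). The median log2 fold change went from 0.04 under 10 kb to 0.01 from 10 to 50 kb, -0.05 from 50 to 100 kb and -0.15 at 100 kb or more. In the longest class 71.8% of values were negative, against 6779 of 13367 over all tested genes. Of the 1282 genes in that class, 379 did not overlap with Elof1-cKO lower, against 12.5% of all tested genes. With Elof1-cKO higher, 98 did not overlap, against 12.6%. Called lower genes had a median span of 37.5 kb, against 18.8 kb for called higher genes and 17.7 kb for all tested genes.

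Within each library, the median log2 CPM of the longest class (100 kb or more) exceeded that of the shortest (under 10 kb) by 1.54, 1.58 and 1.54 in WT replicates 1 to 3. The excess was 1.42, 1.48 and 1.35 in the Elof1-cKO replicates. Every Elof1-cKO library was below every WT library, and the difference of -0.14 met the smallest p that 3 against 3 libraries allow (exact 2-sided permutation p = 0.1, adjusted p = 0.15 over 3 tests). These counts are of annotated genes, and the sources used here do not say whether reads in introns were counted.

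Long genes with stable falls included Atxn1 (415 kb), Prkca (410 kb) and Babam2 (387 kb). Atxn1, which encodes a transcriptional regulator, had 88.2, 106 and 81.1 CPM in WT and 47.4, 52.5 and 48.9 CPM in Elof1-cKO, a log2 fold change of -0.89 ± 0.13 (edgeR adjusted p = 0.00223). Prkca, a protein kinase C, had 144, 122 and 126 CPM in WT and 80.7, 78.7 and 79.3 CPM in Elof1-cKO (log2 fold change -0.71 ± 0.10, adjusted p = 0.0014). Babam2, a subunit of a BRCA1-bound deubiquitinase complex, had 48.0, 50.3 and 47.8 CPM in WT and 24.3, 26.7 and 30.7 CPM in Elof1-cKO (log2 fold change -0.84 ± 0.12, adjusted p = 0.00183). These 3, named after their values were seen, kept their calls in all 6 leave-one-out fits and with fly scaling. Mctp1 (647 kb), Fggy (369 kb) and Bicd1 (154 kb) were among the largest falls by rule, at -2.13 ± 0.43, -1.62 ± 0.31 and -1.996 ± 0.48, and kept their calls in 2, 3 and 0 of the 6 fits. Their largest adjusted p were 0.123 without Elof1-cKO replicate 3, 0.0596 without Elof1-cKO replicate 1 and 0.217 without Elof1-cKO replicate 3. Short genes fell too, as Ifi27l2a (1.51 kb) and Ighg1 (5.28 kb) show.

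**Figure D4:**
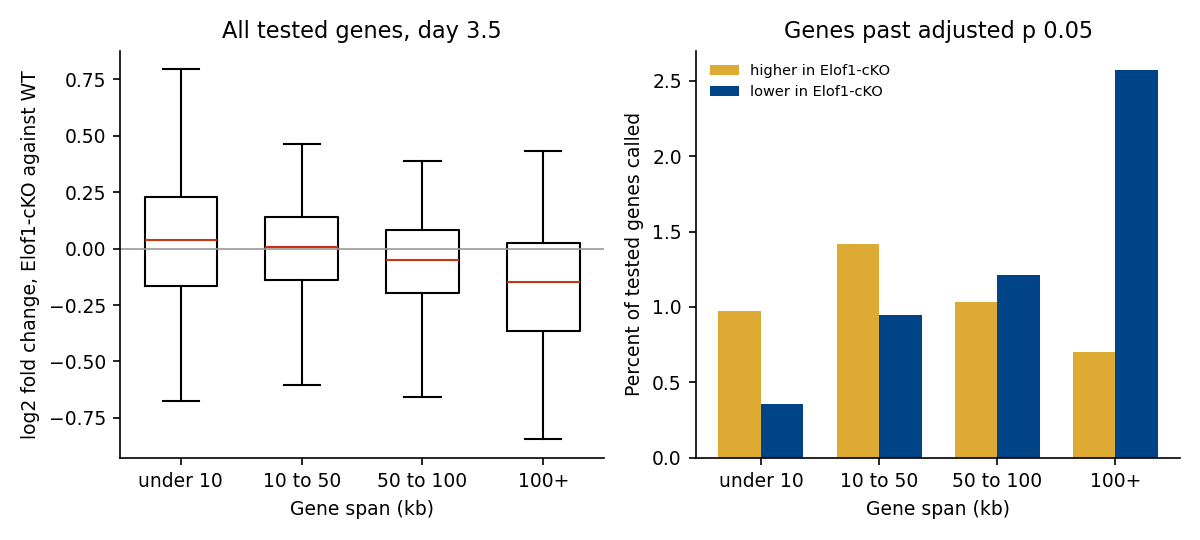
Left, log2 fold change of all tested genes at day 3.5 by class of gene span in kb, with boxes from the first to the third quartile, a red median and whiskers from the 5th to the 95th percentile. Right, the percent of tested genes in each class past an adjusted p of 0.05 in either direction, where lower genes go from 0.359% under 10 kb to 2.57% at 100 kb or more.

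Genes around Elof1 were called at a share near that of all tested genes. Within 10 Mb of Elof1 on chromosome 9, 3 of 117 tested genes passed (2.56%, against 2.07% of all tested genes), namely Elof1, A230050P20Rik and Cdkn2d. Cdkn2d, an inhibitor of cyclin-dependent kinases, was at 0.69 ± 0.16 and A230050P20Rik at -0.86 ± 0.19 (edgeR adjusted p = 0.0296 and 0.0253). Both kept their calls in 1 of 6 leave-one-out fits, with largest adjusted p of 0.191 without Elof1-cKO replicate 3 and 0.171 without WT replicate 1.

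The same comparison a day earlier, in 5 Elof1-cKO and 5 WT libraries at day 2.5, called 693 of the 13367 genes (5.18%). Of the 153 genes higher at day 3.5, 152 had the same sign at day 2.5 and 123 were called there too, which is 80.4% of the day 3.5 list and 32.6% of the 377 genes higher at day 2.5. Of the 124 lower genes, 123 had the same sign and 90 were called, or 72.6% of the day 3.5 list and 28.5% of the 316 genes lower at day 2.5. The exceptions in sign were Gm27616 and Fosl2. The values were smaller at day 2.5 for 128 of the higher and 100 of the lower genes, all of them chosen for their size at day 3.5. The test of the difference between days called 0 genes (0.0%) by edgeR and 0 by DESeq2, with 278 genes (2.08%) and 294 genes at an unadjusted p under 0.05. That share was below what an unadjusted p under 0.05 would give with no difference at all. The 0 calls therefore do not show that the days were alike.

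Ighg1 had nearly the same change on both days, -1.43 at day 2.5 and -1.32 at day 3.5, while its level in WT was 1263 ± 340 CPM (SD, n = 5) at day 2.5 and 2610 ± 607 CPM (SD, n = 3) at day 3.5. The interferon list had a median of -0.36 at day 2.5 and -0.69 at day 3.5, and the amino acid list -0.35 and -0.44. For Ifi27l2a the log2 fold change was -0.66 at day 2.5 and -1.29 at day 3.5, for Oas3 -0.48 and -1.56, and for Asns -0.94 and -1.30. None of these differences between days passed, and no difference between the list medians was tested. The medians of the span classes were 0.06 and -0.13 at day 2.5 for the shortest and longest genes, against 0.04 and -0.15.

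The smallest p for a difference between days belonged to Gm27616, Mindy3, Tmsb10, Tyw3 and Iglc2, from 6.8e-05 to 0.0016 unadjusted, with adjusted p of 0.909 or more. Tmsb10, which binds actin monomers, was at 0.68 ± 0.12 on day 2.5 and -0.13 ± 0.16 on day 3.5. Mindy3, a deubiquitinase, was at -0.17 and 0.38, and Iglc2, a lambda light chain constant gene, at 0.29 and -0.36. Gm27616, a predicted gene of 0.063 kb, had 0 CPM in all WT libraries and 0.524 to 0.946 CPM in Elof1-cKO at day 3.5.

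**Figure D5:**
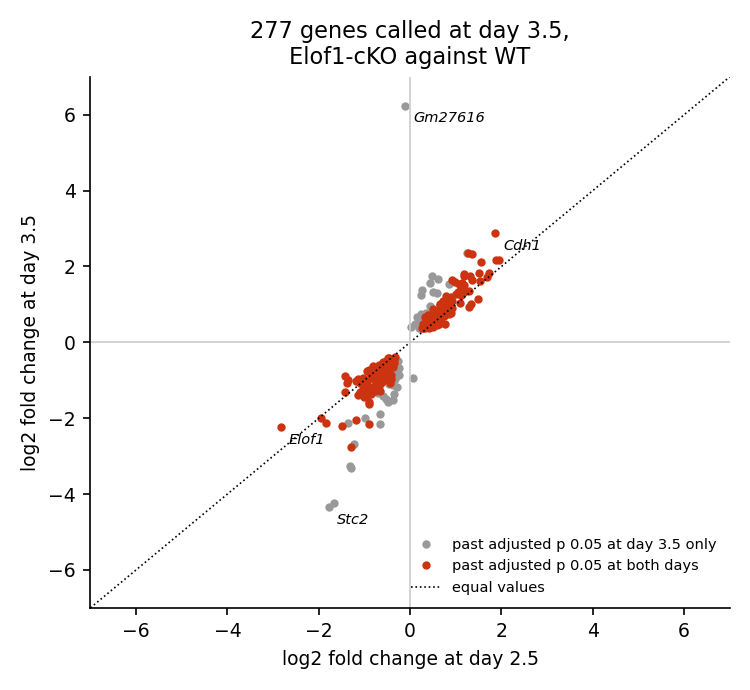
Log2 fold change of Elof1-cKO against WT at day 2.5 (horizontal) and day 3.5 (vertical) for the 277 genes called at day 3.5, with genes called on both days in red and equal values on the dotted line. All but 2 genes, Gm27616 and Fosl2, have the same sign on both days.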

How the data were processed

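RNA was sequenced from mouse spleen B cells after total RNA extraction, ribosomal RNA depletion and a strand-specific library kit, per the labels' protocols. The deposited table holds raw read counts per gene, per the file headers, for 43345 mouse and 17509 fly genes. The submitters' processing notes name Bowtie2, featureCounts, mm10 and dm6; their settings, strand included, were not given in the labels or headers. Mouse genes without a symbol (884) were kept.

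Mouse genes were filtered with filterByExpr (smallest count 10), which left 13367, scaled by TMM and tested with edgeR 4.0.16 (R 4.3.3) by the quasi-likelihood test over all 16 spleen libraries, with 4 groups and a library series term (11 residual degrees of freedom). The library series is a split of the library numbers in the labels into a low and a high run, not a batch that they name. All day 3.5 libraries lie in the high run. P-values were adjusted by Benjamini-Hochberg with a threshold of 0.05. Single values per library were compared by exact permutation, written in Python 3.11.15 with numpy 2.4.6. Alternatives were DESeq2 1.42.0, RLE and fly scaling, no filter, fewer libraries, no series term, a replicate block, robust dispersions and leaving out each replicate. Depth was 11110219 to 14967558 mouse counts per library, and floors cover counting error only.

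The members and gene lists were chosen with earlier results of these data known. Named genes were a fixed set around switching and the 10 largest rises and falls whose mean level was 1 log2 CPM or higher. Up to 4 called members of each list (2 with the smallest p where none was called) and the 5 smallest p for a difference between days were added. Other named genes fall outside this rule and are to be read as chosen after their values were seen. This holds also where the text does not say so, as for Polr2a, Ercc6, Stat2, S1pr1, Klf2, Prdm1 and Xbp1. On simulated counts, the day 3.5 test recovered 13, 35, 39 and 43 of 50 genes changed 1.5-, 2-, 3- and 4-fold, with 5 false calls among 13163 genes. Some genes that the rule names are not reported here.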

Additional observations from a re-analysis of the deposited data

How the results depend on the processing

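The genes called at day 3.5, 277 or 2.07% of those tested, were 278 (2.08%) with RLE scaling and 277 with robust dispersions. They were 1206 (9.38%) with the 12 libraries of the high run of library numbers, 864 (6.93%) with the 6 day 3.5 libraries alone, 573 (4.29%) with DESeq2 and 512 (2.21%) without a filter. They were 105 (0.786%) with fly scaling, 17 of them higher and 88 lower, and 87 (0.651%) without the library series term. The cause was not tested. Of the 277 genes, 275, 273, 272, 244, 88 and 87 were called in these 6 fits. Leaving out single replicates gave 0.445% (without Elof1-cKO replicate 3) to 1.5% (without WT replicate 2) of tested genes. The difference between days, with 0 genes called, had 16 without a filter, 5 higher and 11 lower. None of the called genes named by rule reversed its direction under these alternatives. Without the library series term 27 of 53 called genes named by rule kept their call and 26 lost it. Elof1, Uqcc2 (edgeR adjusted p = 0.301), Cd274 and Ski were among those that lost it. With 3 libraries a group, the simulated test recovered 13 of 50 changes of 1.5-fold, so many small changes lie below what it can call.

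A fit with replicate number as a block called 830 genes (6.21%) over 16 libraries and 560 (4.49%) over the 6 day 3.5 libraries. Same-numbered Elof1-cKO and WT libraries at day 3.5 had correlations of 0.272, -0.51 and -0.457 of their deviations from the group means. Not every library correlated best with its own number. Deviations from a mean of so few libraries are tied to one another, so these values cannot decide whether the numbers pair the samples. The day 2.5 libraries were not examined in this way.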
